A study of Bubalus bubalis with 12 samples.

Results

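The heat shock proteins and cochaperones described here were 63 genes measured in whole corpus luteum (CL) of buffalo cows (Bubalus bubalis). They were taken by symbol from the platform annotation and comprised every gene whose symbol begins with HSPA, HSPB, HSPD, HSPE, HSPH, HSP90 or DNAJ, or with CCT, BAG or HSF followed by a digit. They made up 63 of 9155 genes with a single symbol, and 97 of the 24016 probe sets tested carried one of their symbols. The probe set with the highest mean over the 12 arrays stood for each gene. The symbol rule also takes in HSPBP1 and HSPBAP1, which bind heat shock proteins, and HSF2BP, which binds HSF2 and is not itself a heat shock factor.

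The CL, the progesterone-secreting gland that forms from the ovulated follicle, was collected on day 11 of the estrous cycle from animals with a record of normal cycles. Control CL (0 h, n = 4 animals) came from cows whose label gives no treatment, so no vehicle injection is on record for them. The other cows received 500 µg of cloprostenol, an analogue of prostaglandin F2α (PGF2α), by intramuscular injection, and CL were retrieved 3 h (n = 2, labelled replicates 1 and 3), 6 h (n = 3) or 18 h (n = 3) post injection. No strain or age is given, each array held the CL of 1 animal, and the array probes were designed on cattle sequence.

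Chaperones hold, fold and refold other proteins. HSP70 proteins bind short exposed stretches of a client, J-domain (DNAJ) proteins deliver clients to them and trigger ATP hydrolysis, and nucleotide exchange factors such as the HSP110 and BAG proteins release ADP and the client. HSP90 acts later on kinases and steroid receptors, small HSPs hold unfolded proteins without ATP, and the barrel-shaped chaperonins CCT (cytosol) and HSPD1 with HSPE1 (mitochondrial matrix) enclose a client while it folds. The endoplasmic reticulum (ER) and the mitochondrion have their own HSP70 proteins, HSPA5 and HSPA9. Heat shock factors, HSF1 above all, switch on the cytosolic genes, and the unfolded protein response switches on those of the ER. Luteal cells are rich in mitochondria and ER, where progesterone is made, and PGF2α starts the regression of the CL.

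All values are log2 levels made by robust multichip average (RMA), and differences are log2 ± the standard error of the limma fit. A gene was called at a limma adjusted p under 0.05, adjusted over all 24016 probe sets. Array medians lay between 7.09 and 7.17. Control replicates 1 and 4 were much alike, with 6 probe sets more than 2-fold apart where other pairs of a group had 220 to 1306, the latter being the 3 h pair. Over the 63 genes the median absolute difference between control replicates 1 and 4 was 0.076, against 0.129 to 0.256 in other pairs. Their labels give them as separate animals and their values differed, so both were kept. With them averaged, 18 of the 30 calls of members over the 6 comparisons were lost. The calls kept at 6 h and 18 h are named below, and gene paragraphs give this loss for some genes only. The luteal marker genes were bright in the controls, where the mean of 7 of 7 listed genes was 13.1 to 13.5.

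At 3 h, 1 of the 63 genes rose (1.59%) and 0 fell, where 0.0109% of all genes rose and 0.0218% fell. The gene was HSPH1, which was also the only 1 of all 9155 genes that rose, so the 2 shares rest on the same gene. At an unadjusted p under 0.05, 8 of the 63 genes were higher and 4 lower, beside 415 and 584 of all 9155 genes. At 6 h, 10 genes rose (15.9%, against 6.55% of all genes) and 4 fell (6.35%, against 7.66%). At 18 h, 5 genes rose (7.94%, against 7.55% of all genes) and 7 fell (11.1%, against 8.35%). In the fit of all 12 arrays the share that rose at 6 h was thus the one farthest from the background in percentage points. The shares at 18 h were near the background. The median difference of the 63 genes was 0.09 at 3 h, 0.05 at 6 h and 0.03 at 18 h, beside -0.01, -0.05 and -0.02 for all genes. These 3 comparisons share their controls. In all 21 genes were called against 0 h at least once and 42 were not. HSPH1, HSPA5 and CCT5 rose, and HSPA2 and HSPB3 fell, at both 6 h and 18 h, and HSPH1 was the only gene called at all 3 times.

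**Figure D1:**
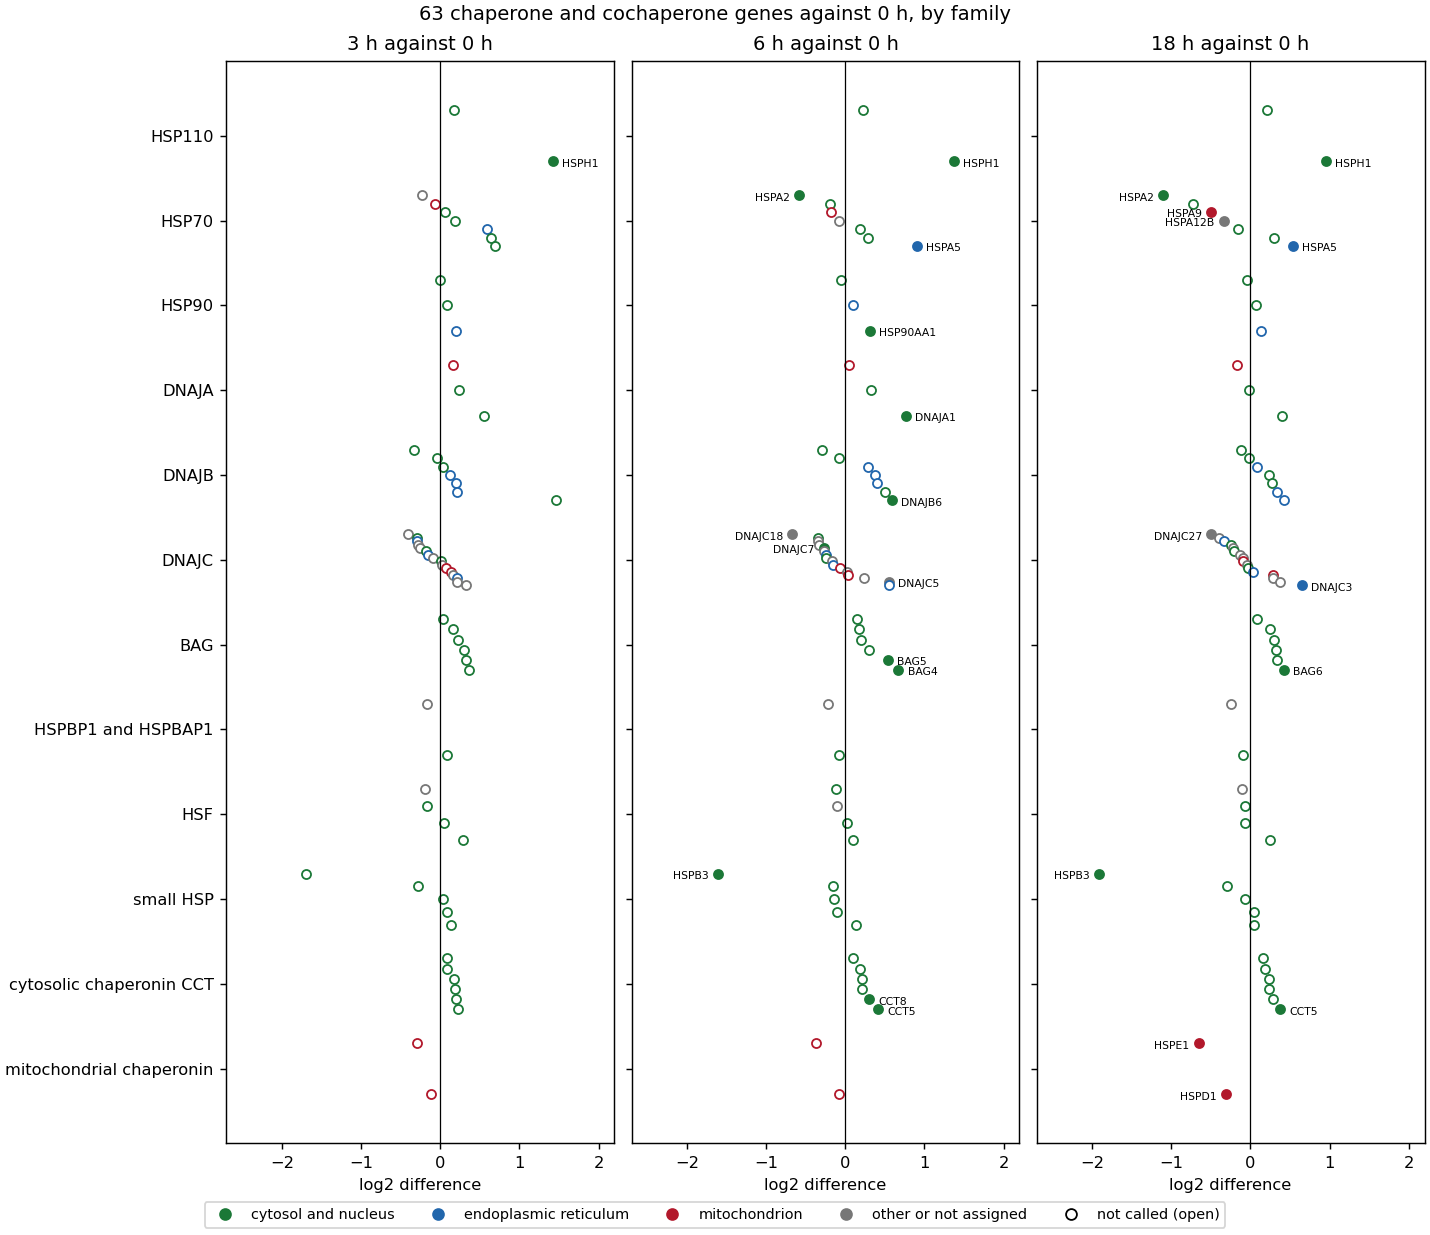
Log2 difference from 0 h (horizontal axis) of the 63 genes at 3 h, 6 h and 18 h, in rows by family, with points in a row spread for legibility and coloured by cell compartment. Filled points are called and named (1 at 3 h, 14 at 6 h and 12 at 18 h), and open points are not called. All 6 BAG and all 6 CCT genes lie right of 0 at each time, and both mitochondrial chaperonin genes lie left.

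Of 38 genes of the cytosol and nucleus, 1 rose at 3 h, 8 rose and 3 fell at 6 h, and 3 rose and 2 fell at 18 h, with medians of 0.11, 0.16 and 0.08. Of these 38, 21.1% rose and 7.89% fell at 6 h, where 6.55% of all genes rose and 7.66% fell, and 7.89% rose and 5.26% fell at 18 h, where 7.55% of all genes rose and 8.35% fell. At these 2 times the cytosolic shares other than that of genes higher at 6 h were thus near the background or below it. Of 8 ER genes 0 were called at 3 h, 1 rose at 6 h and 2 rose at 18 h, and none of the 8 fell at any time (medians 0.20, 0.33 and 0.23). Of 6 mitochondrial genes none was called at 3 h or 6 h, 3 fell at 18 h and none rose (medians 0.01, -0.07 and -0.24). With 8 and 6 genes, 1 call is 12.5% and 16.7% of these compartments. The highest group mean was at 0, 3, 6 and 18 h for 4, 15, 11 and 8 of the 38 cytosolic genes. For the 8 ER genes the counts were 1, 1, 2 and 4, and for the 6 mitochondrial genes 3, 2, 0 and 1. Over all 63 genes they were 15, 19, 15 and 14. The mean at 3 h rests on 2 arrays, and such counts were not made over all 9155 genes. Whether compartments differ from one another was not tested.

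HSPH1, the HSP110 protein that exchanges nucleotide on cytosolic HSP70, rose at all 3 times. It stood at 10.61, 10.77, 11.13 and 10.64 in controls, 12.43 and 11.99 at 3 h, 12.29, 12.20 and 12.01 at 6 h, and 11.89, 11.45 and 11.88 at 18 h. Every treated array was thus above every control array. HSPH1 rose 2.68-fold at 3 h (1.42 ± 0.19, adjusted p = 0.0393), 2.60-fold at 6 h (1.38 ± 0.16, adjusted p = 0.00116) and 1.93-fold at 18 h (0.95 ± 0.16, adjusted p = 0.00378). Its 4 probe sets ranged from 1.06 to 1.53 at 3 h, where 1 was called, and from 1.08 to 1.79 at 6 h, where all 4 were, and 2 were called at 18 h. The call at 3 h was lost in 8 of 12 fits without 1 array, namely without control replicate 1, 2 or 4, any 6 h array, or 18 h replicate 1 or 3 (highest adjusted p = 0.175), and with the 2 like controls averaged. HSPA4, the other HSP110 gene, was not called (0.18 ± 0.15 at 3 h, 0.23 ± 0.14 at 6 h and 0.21 ± 0.14 at 18 h).

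Among cytosolic HSP70 genes, HSPA8, the constitutive HSP70, was highest at 3 h and lower at 18 h than at 3 h. It stood at 13.31, 13.51, 13.19 and 13.26 in controls, 13.97 and 13.95 at 3 h, 13.54, 13.73 and 13.26 at 6 h, and 12.97, 13.20 and 13.32 at 18 h. Both 3 h arrays were above every other array, but the difference from 0 h was not called (0.64 ± 0.15, adjusted p = 0.209). Between 3 h and 18 h HSPA8 fell by 0.80 ± 0.15 (1.74-fold, adjusted p = 0.0218).

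HSPA2, an HSP70 best known from male germ cells, fell late. It stood at 10.18, 10.15, 9.62 and 10.12 in controls, 10.17 and 9.996 at 3 h, 9.53, 9.63 and 9.14 at 6 h, and 8.80, 9.04 and 8.91 at 18 h. The 18 h arrays were below all others, and at 6 h the groups overlapped through control replicate 3. HSPA2 fell by 0.59 ± 0.16 at 6 h (adjusted p = 0.0349) and by 1.10 ± 0.16 at 18 h (2.15-fold, adjusted p = 0.00151), and 18 h was lower than 3 h by 2.25-fold (-1.17 ± 0.19, adjusted p = 0.0102). The 18 h calls were kept in every fit without 1 array. The call at 6 h was lost in 6 of 12, without control replicate 1, 2 or 4 or any 6 h array. HSPA14, a ribosome-bound HSP70, was not called (0.30 ± 0.12 at 18 h). HSPA12B, a distant relative known from endothelial cells, fell at 18 h (-0.34 ± 0.09, adjusted p = 0.0341), with 7.33, 7.48, 7.24 and 7.32 in controls and 6.93, 7.16 and 6.93 at 18 h, a call lost without control replicate 1, 2 or 4 or 18 h replicate 1 or 3.

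**Figure D2:**
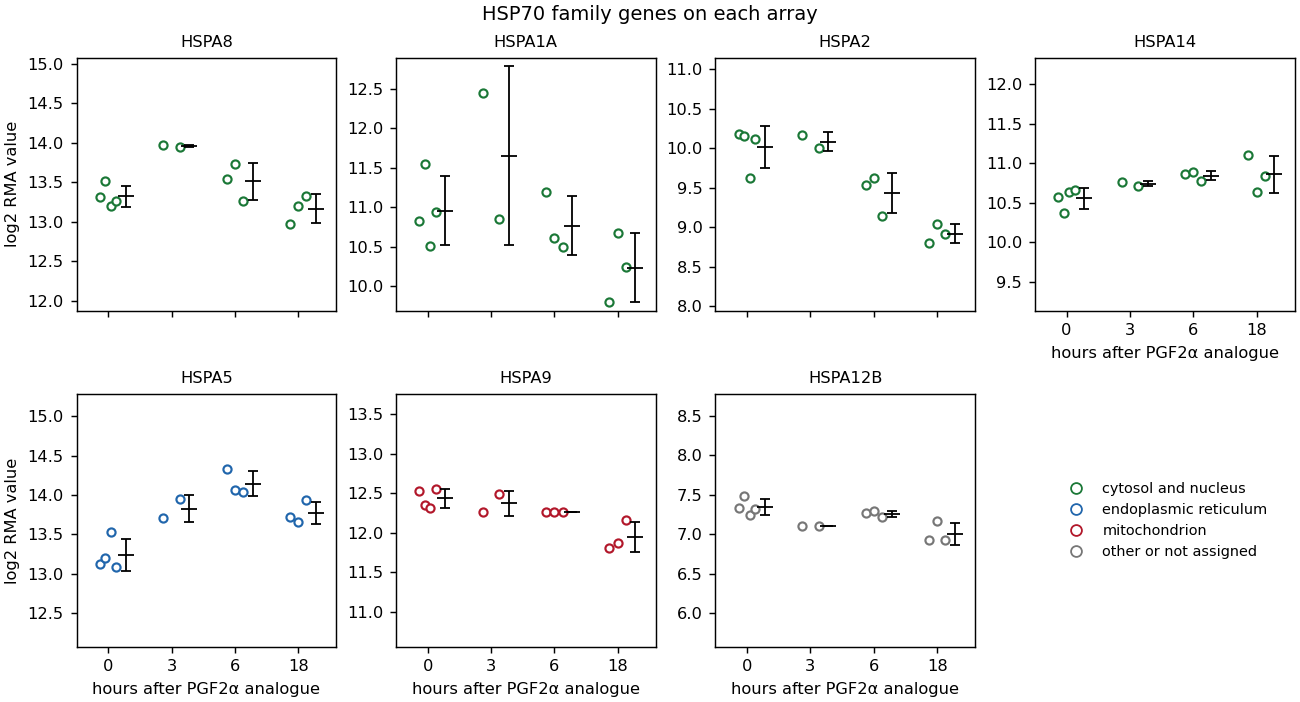
Log2 RMA level (vertical axis, each panel with the same span but its own centre) of the 7 HSP70 genes on each array against hours post PGF2α analogue (horizontal axis, times evenly spaced). Each point is an array and each bar the mean ± SD (n = 4, 2, 3 and 3). HSPA8 peaks at 3 h, HSPA2 is lowest at 18 h, and the 2 arrays of HSPA1A at 3 h lie at 12.45 and 10.85.

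HSPA1A, the classical heat-inducible HSP70, was not called at the probe set used. Its values were 10.82, 11.54, 10.51 and 10.94 in controls, 12.45 and 10.85 at 3 h, 11.19, 10.61 and 10.49 at 6 h, and 9.79, 10.67 and 10.23 at 18 h. Replicate 1 at 3 h was the highest array of all, while replicate 3 lay within the controls, and the difference from 0 h was 0.69 ± 0.41 at 3 h (adjusted p = 0.626) and -0.72 ± 0.37 at 18 h (adjusted p = 0.247). Between 3 h and 18 h it was -1.41 ± 0.44 (adjusted p = 0.122), which was not called. The annotation names 6 probe sets HSPA1A, and they did not move alike. At 6 h 1 of them rose (0.67 ± 0.13, adjusted p = 0.011) and stood at 7.10, 7.17 and 7.28 against 6.50, 6.58, 6.39 and 6.56 in controls. At 18 h another fell (-1.43 ± 0.41, adjusted p = 0.0445), at 7.62, 7.52 and 7.69 against 9.89, 8.61, 7.99 and 9.69. Nearly identical HSP70 genes exist in cattle, so which transcript each probe set reads is uncertain.

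**Figure D3:**
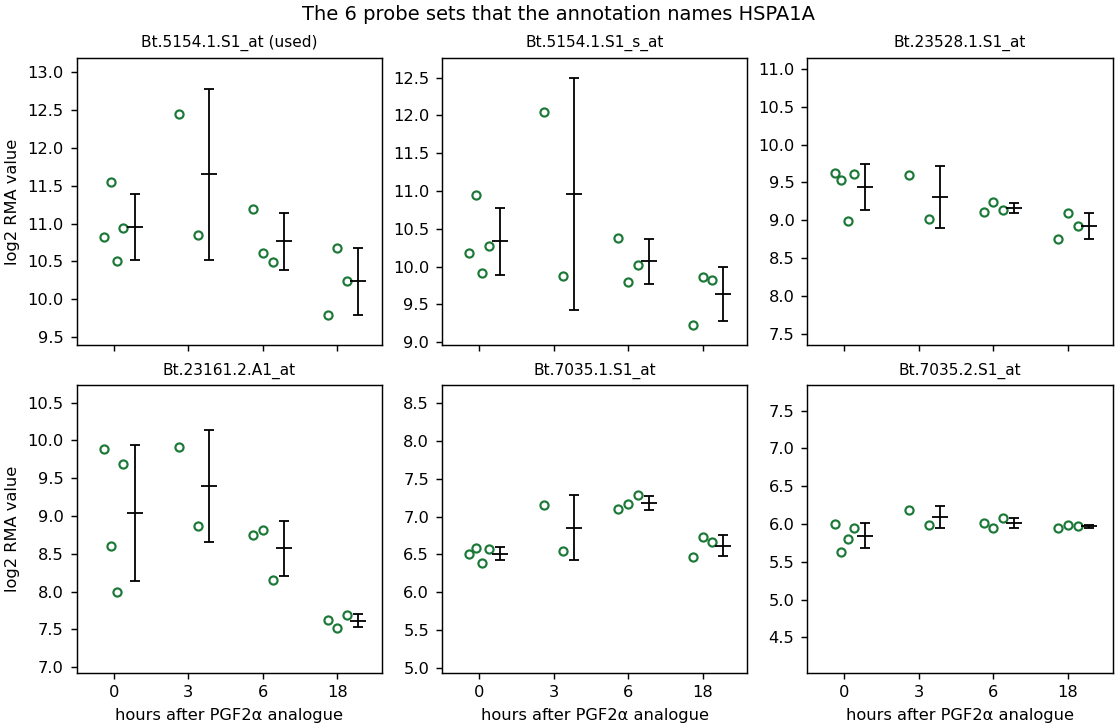
Log2 RMA level (vertical axis, same span in each panel) of the 6 probe sets named HSPA1A on each array against hours post PGF2α analogue (horizontal axis, not to scale), with points for arrays and bars for the mean ± SD (n = 4, 2, 3 and 3). The panel titles give the probe sets. The first 2 panels share the high array at 3 h, the panel at lower left is lowest at 18 h and the one beside it is highest at 6 h.

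DNAJB1, the stress-inducible J-domain protein, stood at 9.36, 9.75, 9.56 and 9.46 in controls, 10.56 and 11.43 at 3 h, 10.16, 10.499 and 9.45 at 6 h, and 9.38, 9.29 and 9.87 at 18 h. Both 3 h arrays were above all others, with replicate 3 the higher of the pair, whereas for HSPA1A replicate 1 was the higher. The difference from 0 h was 1.46 ± 0.29 (2.75-fold, adjusted p = 0.181), which was not called. Its 2 probe sets agreed at 3 h (1.46 and 1.49). From 3 h to 18 h DNAJB1 fell 2.79-fold (-1.48 ± 0.31, adjusted p = 0.0304), a call lost without 18 h replicate 1 or 2. It was also lost without 3 h replicate 3, a fit that leaves 1 animal at 3 h.

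DNAJA1, which pairs with HSP70 in general folding and protein import, rose at 6 h. Its values were 10.42, 10.28, 10.80 and 10.39 in controls, 10.70 and 11.36 at 3 h, 11.30, 11.45 and 10.98 at 6 h, and 10.35, 10.36 and 10.65 at 18 h. The 6 h arrays lay above all controls and all 18 h arrays, with a rise of 1.71-fold (0.77 ± 0.18, adjusted p = 0.0205). The difference from 0 h was 0.56 ± 0.20 at 3 h (adjusted p = 0.411) and -0.02 ± 0.18 at 18 h, and 6 h differed from 3 h by 0.21 ± 0.22 (adjusted p = 0.742). DNAJB6, which keeps proteins from aggregating, also rose at 6 h (0.59 ± 0.15, adjusted p = 0.0272), from 10.06, 9.97, 10.504 and 10.15 to 10.72, 10.78 and 10.78. Its difference at 3 h was -0.04 ± 0.17. The DNAJA1 call was lost in 5 of 12 fits without 1 array and that of DNAJB6 in 6, in each case without control replicate 1, 2 or 4 or 6 h replicate 1 or 2, and for DNAJB6 also without 6 h replicate 3.

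Among the 16 DNAJC genes, a mixed group with varied functions, at 6 h 1 rose, 2 fell and 13 were not called (median -0.20), and at 18 h 1 rose and 1 fell (median -0.09). DNAJC18 fell by 0.67 ± 0.13 at 6 h (1.59-fold, adjusted p = 0.00891), from 9.75, 9.58, 9.29 and 9.73 to 9.01, 8.78 and 8.98, with no overlap, and the call was kept in every fit without 1 array. DNAJC7, which binds both HSP70 and HSP90, fell by 0.27 ± 0.08 at 6 h (adjusted p = 0.0452), and both its probe sets were called, although 9 of 12 fits without 1 array lost the call at the one used. At 18 h the probe sets used for DNAJC7 and DNAJC24 were not called, while 1 other probe set of each was lower (-0.28 and -0.63). DNAJC5, the cysteine string protein of secretory vesicles, rose by 0.56 ± 0.15 at 6 h (adjusted p = 0.034) at 1 of 2 probe sets, the other standing at -0.14, and lost the call without control replicate 1, 2 or 4 or 6 h replicate 2 or 3. DNAJC27, a Rab-like protein with a J domain, fell by 0.50 ± 0.13 at 18 h (adjusted p = 0.0255), with 8.97, 8.72, 9.18 and 9.04 in controls and 8.58, 8.30 and 8.56 at 18 h, a call lost without control replicate 1 or 4 or any 18 h array.

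In the ER the HSP70 protein HSPA5 (BiP), the usual readout of the unfolded protein response, rose and had its highest mean at 6 h. It stood at 13.13, 13.20, 13.54 and 13.08 in controls, 13.70 and 13.95 at 3 h, 14.32, 14.07 and 14.03 at 6 h, and 13.73, 13.66 and 13.93 at 18 h. All treated arrays were above all controls. The difference was 0.59 ± 0.15 at 3 h, not called (adjusted p = 0.234), and the rise was 1.87-fold at 6 h (0.90 ± 0.13, adjusted p = 0.00293) and 1.45-fold at 18 h (0.54 ± 0.13, adjusted p = 0.0224). HSPA5 at 6 h was not called against 3 h (0.31 ± 0.16, adjusted p = 0.447), nor was 18 h against 6 h (-0.37 ± 0.14, adjusted p = 0.323). All 3 of its probe sets were called at 6 h and 2 at 18 h. The 6 h call was kept in every fit without 1 array, and that of 18 h was lost in 5 of 12, without control replicate 1, 2 or 4 or 18 h replicate 1 or 3. The mean of HSPA5 was 13.24 at 0 h and 14.14 at 6 h, below the highest value of the table (15.33). Whether bright signal limited its rise was not tested.

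DNAJC3, an ER J-domain protein that also restrains the kinase PERK, rose at 18 h (0.65 ± 0.19, adjusted p = 0.049), with 9.82, 9.58, 10.13 and 9.82 in controls and 10.38, 10.16 and 10.92 at 18 h. At 6 h it stood at 10.43, 10.38 and 10.36, above all controls, without being called (0.56 ± 0.19, adjusted p = 0.0909), and 8 of 12 fits without 1 array lost the 18 h call. DNAJB9, an early target of the same response, was not called at 0.21 ± 0.19, 0.40 ± 0.16 and 0.42 ± 0.16 at 3, 6 and 18 h. HSP90B1, the HSP90 of the ER (GRP94), was not called either, at 0.21 ± 0.11, 0.10 ± 0.10 and 0.13 ± 0.10. The list of HSP70 partners outside the symbol rule holds further ER genes. HYOU1, the HSP110 of the ER, rose at 6 h (0.60 ± 0.15, adjusted p = 0.0245), and SEC63, the J-domain protein of the translocon, rose at 6 h (0.38 ± 0.10) and 18 h (0.42 ± 0.10, adjusted p = 0.0186). SIL1, which exchanges nucleotide on HSPA5, fell at 6 h (-0.56 ± 0.13) and 18 h (-0.65 ± 0.13, adjusted p = 0.00918). Of 11 measured genes of that list, 0 were called at 3 h, 2 rose and 1 fell at 6 h, and 1 rose and 2 fell at 18 h (medians -0.01, -0.03 and 0.09).

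**Figure D4:**
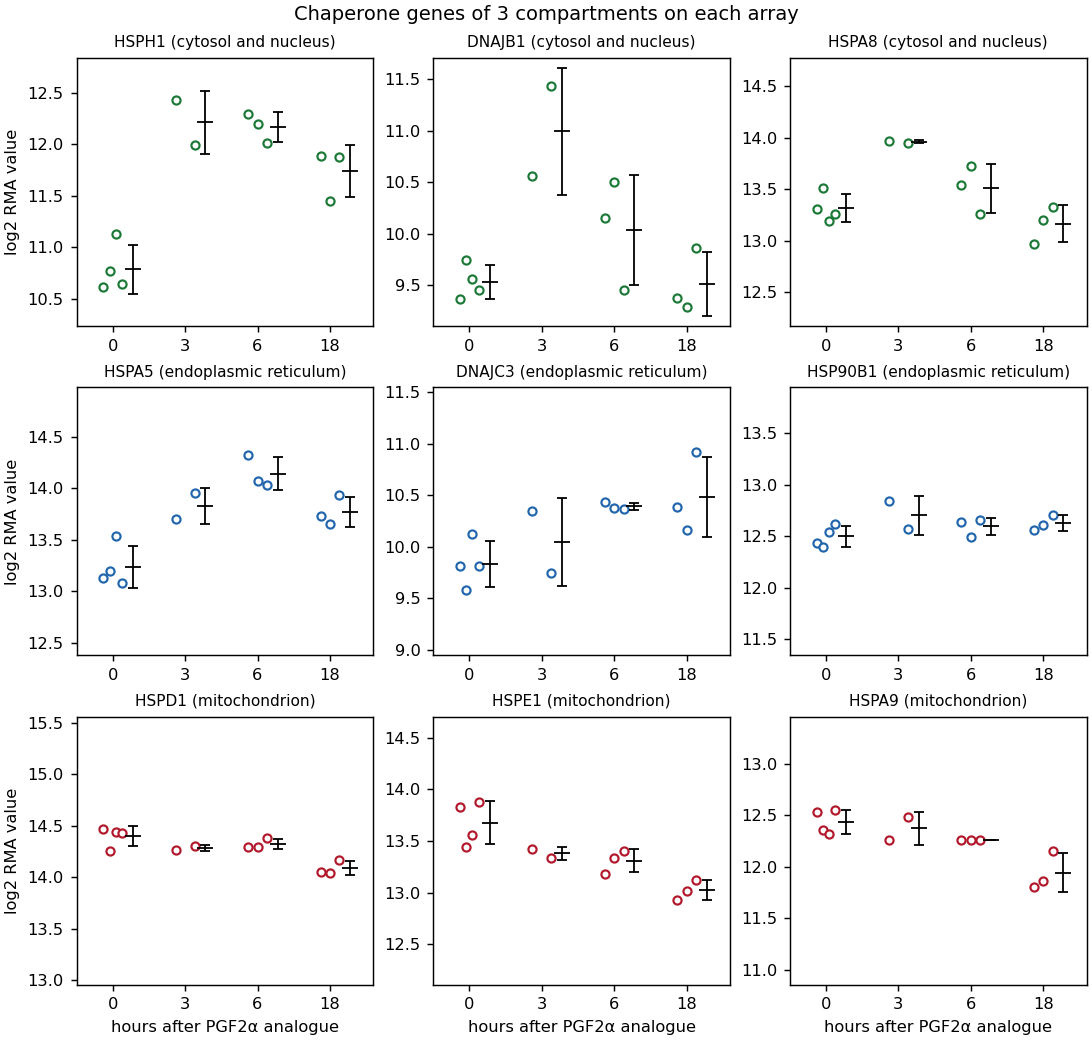
Log2 RMA level (vertical axis, same span in each panel) of 3 cytosolic, 3 ER and 3 mitochondrial genes on each array against hours post PGF2α analogue (horizontal axis, not to scale), with points for arrays and bars for the mean ± SD (n = 4, 2, 3 and 3). HSPH1, DNAJB1 and HSPA8 have their highest mean at 3 h and HSPA5 at 6 h, and HSPD1, HSPE1 and HSPA9 have their lowest at 18 h. For HSPH1 6 h differed from 3 h by -0.05 ± 0.20.

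Of the mitochondrial genes, HSPE1, HSPD1 and HSPA9 fell at 18 h at the probe sets used. HSPE1, the lid of the mitochondrial chaperonin, stood at 13.83, 13.44, 13.56 and 13.88 in controls, 13.43 and 13.34 at 3 h, 13.18, 13.34 and 13.40 at 6 h, and 12.93, 13.02 and 13.13 at 18 h. All treated arrays were below all controls, and the fall was 1.57-fold at 18 h (-0.65 ± 0.12, adjusted p = 0.0048), while 6 h was not called (-0.37 ± 0.12, adjusted p = 0.0687). HSPD1, the barrel that HSPE1 closes, went from 14.47, 14.25, 14.44 and 14.43 to 14.05, 14.04 and 14.17 at 18 h (-0.31 ± 0.08, adjusted p = 0.0323). HSPA9, the matrix HSP70 that pulls in imported proteins, went from 12.53, 12.35, 12.32 and 12.55 to 11.81, 11.86 and 12.16 (-0.49 ± 0.11, adjusted p = 0.0129). The groups did not overlap for any of these genes at 18 h.

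HSPE1 kept its 18 h call in every fit without 1 array. HSPA9 lost it without 18 h replicate 1 or 2, and HSPD1 lost it in 6 of 12 fits, without control replicate 1, 3 or 4 or any 18 h array. For HSPA9 1 of 2 probe sets was called, the other standing at 0.08 at 18 h, and with the mean of its probe sets HSPA9 was not called. GRPEL1, which exchanges nucleotide on HSPA9, also fell at 18 h (-0.60 ± 0.13, adjusted p = 0.00986), with 10.53, 10.55, 10.63 and 10.58 in controls and 10.01, 9.73 and 10.16 at 18 h. GRPEL2, from the same list of HSP70 partners, was not called at 18 h (0.13 ± 0.16). The mitochondrial J-domain genes were not called at 18 h, with DNAJA3 at -0.16 ± 0.17, DNAJC11 at -0.09 ± 0.11 and DNAJC19 at 0.28 ± 0.13.

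CCT, the cytosolic chaperonin that folds actin and tubulin, had small positive differences. All 6 measured subunits were positive at each time, with medians of 0.18, 0.21 and 0.23, and 2 rose at 6 h and 1 at 18 h. Of all 9155 genes 4409, 3802 and 4223 were positive at 3, 6 and 18 h, and the 3 comparisons share their controls. CCT5 rose at 6 h (0.42 ± 0.11, adjusted p = 0.0287) and 18 h (0.37 ± 0.11, adjusted p = 0.0411). It stood at 11.93, 11.81, 11.999 and 11.83 in controls, 12.29, 12.45 and 12.19 at 6 h, and 12.47, 12.22 and 12.11 at 18 h, with no overlap. The CCT5 call was lost in 5 of 12 fits without 1 array at 6 h (control replicate 1, 2 or 4 or 6 h replicate 1 or 2, highest adjusted p = 0.126) and in 6 at 18 h (control replicate 1, 2 or 4, 6 h replicate 1 or 18 h replicate 1 or 2, highest adjusted p = 0.177), and at both times with the 2 like controls averaged. CCT8 rose at 6 h (0.30 ± 0.09, adjusted p = 0.049), a call lost in 10 of 12 fits without 1 array, all but those without a 3 h array. CCT2 was not called (0.18 ± 0.11, 0.21 ± 0.10 and 0.23 ± 0.10). Of 10 measured prefoldin and other CCT partners 1 was called. PFDN5, a subunit of prefoldin, which hands actin to CCT, fell at 6 h (-0.50 ± 0.11, adjusted p = 0.0171) and 18 h (-0.46 ± 0.11, adjusted p = 0.0218).

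The BAG genes, whose proteins release clients from HSP70, were also all positive at each time at the probe sets used. Their medians were 0.27, 0.25 and 0.31 over 6 genes. Of their other probe sets, 1 of BAG2 was negative at 3 h (-0.05) and 1 of BAG6 at each time (-0.19, -0.05 and -0.08), while the rest were positive. BAG4 (0.67 ± 0.18, adjusted p = 0.034) and BAG5 (0.54 ± 0.13, adjusted p = 0.0258) rose at 6 h, with 6.85, 6.998 and 6.998 against 6.36, 6.42, 6.48 and 5.86 for BAG4 and 7.52, 7.73 and 7.20 against 6.96, 6.70, 7.04 and 7.06 for BAG5. BAG6, which sorts membrane proteins that failed to insert, rose at 18 h (1.34-fold, 0.43 ± 0.08, adjusted p = 0.00761), with 10.97, 10.90 and 10.82 against 10.55, 10.42, 10.48 and 10.43. Groups did not overlap for these genes. Leaving out 1 array lost the BAG4 call in 6 of 12 fits (control replicate 1, 2 or 4 or any 6 h array) and the BAG5 call in 4 (control replicate 1 or 2 or 6 h replicate 1 or 2), and both were lost with the 2 like controls averaged. The BAG6 call was kept in every fit without 1 array, but 2 of its 4 probe sets were called and the mean of its probe sets was not. BAG3, the stress-inducible member, was not called (0.37 ± 0.14 at 3 h, where the groups did not overlap, 0.17 ± 0.13 at 6 h and 0.08 ± 0.13 at 18 h).

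HSP90AA1, the inducible cytosolic form, rose 1.24-fold at 6 h (0.31 ± 0.08, adjusted p = 0.0329), from 11.56, 11.47, 11.54 and 11.45 to 11.91, 11.79 and 11.73, at 1 of its 2 probe sets, a call lost without control replicate 1, 2 or 4 or 6 h replicate 1 or 2. HSP90AB1, the constitutive form, was not called, at 0.00 ± 0.12, -0.05 ± 0.11 and -0.05 ± 0.11. Of 14 measured HSP90 cochaperones 13 were positive at 3 h with none called (median 0.17), where 4409 of all 9155 genes were positive. UNC45A was the negative gene (-0.50 ± 0.13, limma adjusted p = 0.276), with both 3 h arrays below all controls. The mean of the list was 9.333 and 9.735 on the 2 arrays at 3 h and 9.329 to 9.375 in controls. One 3 h array thus lay within the controls. At 6 h 1 of the 14 genes rose. That gene was TTC4 (0.86 ± 0.22, adjusted p = 0.029), at 8.98, 8.59 and 8.57 against 7.93, 7.41, 7.98 and 8.09 in controls. The other 13 were not called at any time.

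Of 5 small HSPs, HSPB3, known from muscle, fell at 6 h (-1.61 ± 0.42, adjusted p = 0.0319) and 18 h (-1.91 ± 0.42, adjusted p = 0.013). Its controls were widely spread, at 7.33, 5.94, 5.33 and 7.18, and the treated arrays were dim, at 4.53 and 4.98, then 4.52, 4.63 and 5.35, then 4.69, 4.47 and 4.43. The size of the fall is therefore uncertain, and at 6 h the groups overlapped. Control replicates 1 and 4 held the high values, and the 6 h call was lost without either of them or without 6 h replicate 1 or 2. HSPB1 (HSP27), bright at 13.51 ± 0.12 (SD, n = 4) in controls, was not called, at 0.04 ± 0.14, -0.10 ± 0.13 and 0.05 ± 0.13. HSPB8, the partner of BAG3, was not called either (0.08 ± 0.14, 0.13 ± 0.12 and 0.05 ± 0.12).

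CRYAB, a small HSP whose symbol lies outside the rule and which is the next protein-coding gene to HSPB2 in the buffalo annotation, rose at 18 h (2.54 ± 0.62, adjusted p = 0.0203). It stood at 7.55, 7.92, 8.42 and 7.58 in controls and 10.55, 9.67 and 11.01 at 18 h, where HSPB2 differed by -0.07 ± 0.12. The arrays at 6 h were spread, at 11.25, 9.57 and 8.39, and were not called (1.87 ± 0.62, adjusted p = 0.0748). The same list of 8 other stress genes holds chaperones and genes that are not chaperones. In it SQSTM1, the autophagy receptor p62, rose at 18 h (1.40 ± 0.26, adjusted p = 0.0052), and SERPINH1, the collagen chaperone HSP47, fell (-0.51 ± 0.15, adjusted p = 0.0458). None of the list was called at 3 h or 6 h.

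None of the 4 HSF genes was called at any time. HSF1, the regulator of the heat shock response, differed by 0.29 ± 0.12, 0.09 ± 0.11 and 0.25 ± 0.11, and HSF2 by -0.17 ± 0.12, 0.02 ± 0.10 and -0.06 ± 0.10. These arrays measure RNA, whereas HSF1 is switched on mainly as a protein. HSPBP1 and HSPBAP1 were not called.

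Treated times were also compared with each other. Between 3 h and 18 h 3 of the 63 genes fell (DNAJB1, HSPA2 and HSPA8) and 0 rose, which is 4.76% lower beside 1.49% of all genes lower and 2.29% higher. Between 3 h and 6 h limma called 0 members, where 0.153% of all genes were higher and 0.0765% lower. At an unadjusted p under 0.05, 3 were higher and 5 lower at 6 h, beside 640 and 756 of all 9155 genes. Between 6 h and 18 h limma also called 0 members, beside 0.371% of all genes higher and 0.273% lower. At an unadjusted p under 0.05, 2 were higher and 12 lower at 18 h, beside 726 and 538 of all 9155 genes. DNAJA1 differed most, by -0.79 ± 0.19 (adjusted p = 0.12), and was called without either 3 h array.

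In whole tissue, fewer cells of a type and less RNA per cell cannot be told apart. The mean of the 7 luteal cell genes was 13.1 to 13.5 in controls, 12.7 to 13.1 at 6 h and 12.1 to 12.7 at 18 h, and 4 of 7 fell at 18 h (STAR, HSD3B1, LHCGR and PTGFR), the time at which HSPD1, HSPE1 and HSPA9 fell. The mean of 6 smooth muscle and pericyte genes was 9.35 to 10.4 in controls and 10.6 to 11.1 at 18 h, with 3 of 6 higher at 6 h and at 18 h (TAGLN, CNN1 and DES). MYH11 was the 1 gene of that list with negative differences at these times (-0.61 ± 0.37 and -0.35 ± 0.37, not called). Of 6 endothelial genes 3 were higher at 6 h and 3 at 18 h (mean 8.21 to 8.65 in controls and 8.76 to 8.91 at 18 h). Among these, KDR was the 1 with negative differences (-0.47 ± 0.23 and -0.53 ± 0.23, not called). Of 6 leukocyte genes 1 was higher at 6 h and 2 at 18 h (mean 6.79 to 7.58 in controls and 7.46 to 8.001 at 18 h), and of 5 fibroblast genes 2 at 18 h (mean 11.4 to 12.1 in controls and 11.96 to 12.48 at 18 h). In the leukocyte list 3 genes were negative at 6 h and 3 at 18 h, none of them called. At 3 h, where 2 animals were measured and 0.0328% of all genes were called, none of these marker genes was called, but CD14 of the leukocyte list differed from 0 h by 1.62 ± 0.51 (adjusted p = 0.335), and the endothelial genes VWF and PECAM1 by 0.63 ± 0.17 (adjusted p = 0.284) and 0.55 ± 0.23 (adjusted p = 0.462). The part of a shift in cell types in the chaperone results was not tested.

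The 14 genes called at 6 h became 3, 5 and 4 without control replicates 1, 2 and 4, and 4, 3 and 8 without 6 h replicates 1, 2 and 3. With control replicates 1 and 4 averaged they became 3, of which 2 were higher (HSPH1 and HSPA5) and 1 lower (DNAJC18). The 12 called at 18 h became 6 without control replicate 1 or 4, 5 without 18 h replicate 1, 7 without 18 h replicate 3, and 6 with the 2 controls averaged (HSPH1, BAG6, HSPA2, HSPA9, HSPE1 and HSPB3). The 3 called between 3 h and 18 h became 1 (HSPA2) without 18 h replicate 1 or 2. None of the 30 calls changed direction in any fit. Shares of all genes called were not taken in these fits, so their counts cannot be set against a background.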

How the data were processed

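RNA of 12 CL was extracted with Trizol, biotin-labelled and hybridised by the authors to GeneChip Bovine Genome Arrays. The authors deposited log2 RMA values. Sources used here do not give the software version, chip definition or which arrays were normalized together. RMA shrinks differences at low signal. Of 24128 probe sets 112 control probe sets were left out. In the platform annotation 13292 probe sets had 1 symbol, 86 several and 10638 none. The number of arrays limits the precision.

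With limma 3.58.1 (R 4.3.3), 1 linear model with a mean for each of the 4 groups was fitted over the 12 arrays and 24016 probe sets, the spread was moderated with eBayes, tests were two-sided, and p-values were Benjamini-Hochberg adjusted within each of 6 comparisons. P-values measure the spread between animals. The fit was tested on simulated data. Named were called members and 20 fixed members, up to 4 called genes a list, and probe sets where calls of a gene differed. PFDN5, CRYAB and other such genes come from 4 lists of chaperone partners and stress genes, and 5 lists gave cell type markers. DNAJC11, DNAJA3, DNAJC19, HSPA14, HSPB2, BAG2, GRPEL2, UNC45A, MYH11 and KDR were named after their values were seen. The members and lists were chosen with earlier results of these data known. Gene order came from the buffalo assembly NDDB_SH_1. Alternatives were a filter on dim probe sets, repeated quantile normalization, median centring, trend and robust settings, the replicate number as a block, the mean of a gene's probe sets, 1 probe set per gene, control replicates 1 and 4 averaged, only the 2 groups compared, and each array left out in turn.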

Additional observations from a re-analysis of the deposited data

Results flagged for a closer look

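Among 34 genes checked for a control array far from the other 3, CCT2, HSPB1 and HSPA2 were picked out, where chance gives about 1 in 20. For CCT2 control replicate 2 read 11.85 and the others 12.12 to 12.16. For HSPB1 control replicate 3 read 13.33 and the others 13.55 to 13.59. For HSPA2 the same array read 9.62 and the others 10.12 to 10.18, and it is through this array that controls and 6 h arrays overlapped.

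The response at 18 h differed from that at 3 h, by the test of that difference itself, for DNAJB1 (-1.48), HSPA2 (-1.17) and HSPA8 (-0.80). For DNAJB1 and HSPA8 the 3 h arrays were high and 18 h was near 0 h, while for HSPA2 the 3 h arrays were near 0 h and the 18 h arrays low.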

How the results depend on the processing

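No call changed direction. Of 30 calls of members, 6 were kept in every alternative and every fit without 1 array, namely HSPH1 at 6 h and 18 h, HSPA5 at 6 h, HSPA2 at 18 h against 0 h and against 3 h, and HSPE1 at 18 h. With control replicates 1 and 4 averaged, the counts of called members were 0 at 3 h, 3 at 6 h and 6 at 18 h, and 18 calls were lost. The count at 3 h was also 0 with repeated quantile normalization, with the mean of a gene's probe sets and with only the 2 groups compared, where the count between 3 h and 18 h was 1. Replicate numbers are shared between groups, but same-numbered arrays did not deviate together (correlations -0.26 to 0.191), so they were not taken as pairs. With the replicate number as a block the counts were 0 at 3 h, 2 at 6 h, 5 at 18 h and 1 between 3 h and 18 h, and 22 calls were lost. Without 1 array the counts ran from 0 to 2 at 3 h, 3 to 14 at 6 h, 5 to 14 at 18 h, 0 to 2 between 3 h and 6 h, 1 to 3 between 3 h and 18 h, and 0 to 1 between 6 h and 18 h. Without the dimmest 40% of probe sets 58 of the 63 genes were tested and HSPB3 was not among them. The highest counts at 3 h and between 3 h and 6 h came from fits that left 1 animal at 3 h. Shares of all genes called were not taken in these alternatives. The causes were not tested. With 2 animals at 3 h, sizes there are the least certain, and levels close to 15.33 or near background can hide changes.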
